A study of Mus musculus with 10 samples.

Results

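The genes described here encode proteins that neutrophils pack into granules. They were taken as a fixed list of 33 genes, matched by symbol or identifier to the 29893 genes that the deposited transcripts sum to. The list was drawn up with earlier results of these data known. By granule class the list holds 6 azurophil, 14 specific and 4 gelatinase granule genes, the 2 lysozyme genes, and 7 other granule, secretory or granule-associated genes. The libraries came from lungs of immunodeficient NOD/scid mice, which lack functional T and B cells, at the end point of tumour growth. The groups were neutrophils of mice bearing the low metastatic tumour HCl-002 (TN2, 3 libraries) or the highly metastatic tumour HCl-001 (TN1, 2 libraries), and CCR2+ monocytes of mice bearing TN2 (3 libraries) or TN1 (2 libraries). Both populations were sorted by flow cytometry and amplified by Smart-seq2, which copies full-length cDNA from small RNA amounts by PCR. Each library carries a tag number, and each tag occurs in both cell types: tag_367, tag_706 and tag_1341 in TN2, and tag_191 and tag_482 in TN1. Values per library are listed below in that order of tags. Nothing in the labels says whether tags stand for separate animals. The p-values therefore reflect the spread among these libraries, which may in part be technical. There was no group of mice without a tumour among the libraries used here.

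Neutrophil granules are made in sequence while the cell matures in the bone marrow. Azurophil granules, with myeloperoxidase and serine proteases, form in promyelocytes, specific granules with lactoferrin and cathelicidin form in myelocytes, and gelatinase granules form last, in band cells. Because the proteins are stored, a circulating neutrophil holds granule proteins whose transcripts it no longer carries. Monocytes derive from a related progenitor, make lysozyme throughout life, and carry some azurophil proteins but few specific granule proteins.

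A few promoters are shown first, those of 3 specific granule genes and of the azurophil protease genes Prtn3 and Elane. The 3 specific granule genes were far higher in neutrophils than in monocytes. Prtn3 and Elane had more reads in monocytes, but neither gave a clear contrast. As given below, Elane did not pass the test, and the result of Prtn3 depended on single libraries. All promoters printed are the 250 bases before the annotated start, 5′ to 3′ on the strand of the gene, from RefSeq (GRCm38.p6). Ltf lies on the plus strand (chr9:111019042-111019291), Ngp on the plus strand (chr9:110419558-110419807) and Camp on the minus strand (chr9:109849457-109849706). These 3 genes share an order of libraries, given below, and lie on chromosome 9. Serpinb1a, which has the same order, lies on chromosome 13, and Itgb2l, with nearly the same order, on chromosome 16. Prtn3 (chr10:79879417-79879666) and Elane (chr10:79886062-79886311) are neighbours on the plus strand of chromosome 10. Capitals mark matches, on either strand, to TTGCNNAA, a pattern of C/EBP factors in which N is any base, or to GAGGAAGT, a pattern of PU.1 and other ETS factors. None of these windows holds both patterns.
Ltf: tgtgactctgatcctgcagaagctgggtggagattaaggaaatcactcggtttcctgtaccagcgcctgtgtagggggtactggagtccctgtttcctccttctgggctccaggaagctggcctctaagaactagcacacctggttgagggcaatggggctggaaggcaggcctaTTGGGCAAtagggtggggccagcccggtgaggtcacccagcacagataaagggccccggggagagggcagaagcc
Ngp: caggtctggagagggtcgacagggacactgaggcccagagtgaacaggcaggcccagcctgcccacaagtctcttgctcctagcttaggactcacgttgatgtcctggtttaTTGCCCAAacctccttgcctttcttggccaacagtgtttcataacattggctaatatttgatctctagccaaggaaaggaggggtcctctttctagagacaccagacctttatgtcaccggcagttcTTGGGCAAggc
Camp: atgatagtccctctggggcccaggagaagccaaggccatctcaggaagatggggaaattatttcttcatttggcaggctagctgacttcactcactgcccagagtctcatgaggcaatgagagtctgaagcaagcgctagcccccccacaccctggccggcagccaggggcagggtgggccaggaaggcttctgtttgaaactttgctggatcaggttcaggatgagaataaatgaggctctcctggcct
Prtn3: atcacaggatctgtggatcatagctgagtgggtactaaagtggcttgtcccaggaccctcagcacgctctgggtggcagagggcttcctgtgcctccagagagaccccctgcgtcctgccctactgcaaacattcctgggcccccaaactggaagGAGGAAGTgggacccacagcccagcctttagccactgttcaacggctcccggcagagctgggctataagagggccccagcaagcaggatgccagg
Elane: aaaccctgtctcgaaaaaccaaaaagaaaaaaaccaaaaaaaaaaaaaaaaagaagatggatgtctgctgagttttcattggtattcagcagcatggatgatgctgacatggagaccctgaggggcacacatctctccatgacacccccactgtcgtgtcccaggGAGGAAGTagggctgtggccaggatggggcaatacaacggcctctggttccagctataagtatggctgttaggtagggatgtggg
TTGCNNAA occurred 75 bases before the RefSeq start of Ltf and 138 and 11 bases before that of Ngp, and in the Camp window neither pattern was found. In GENCODE, the annotation behind the gene sums, Ngp starts at base 110419747 and Camp at base 109849617, both inside the windows printed. Ltf starts there at base 111019271 and Elane at base 79886247, also inside their windows. The Ngp match nearer the RefSeq start thus lies after the GENCODE start, and part of each of these windows lies within its GENCODE gene. The GENCODE gene of Prtn3 runs from base 79874476 to 79883174, so its whole window lies within the gene. GAGGAAGT occurred 95 bases before the RefSeq start of Prtn3 and 85 before that of Elane. Of the 28 listed genes with a RefSeq promoter, 9 (32.1%) held TTGCNNAA, against 9.57% of all 32807 promoters, and 6 (21.4%) held GAGGAAGT, against 2.44%. A match is only a run of letters, and says nothing of binding.

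The libraries held 7239218 to 11311370 estimated counts. The tag_482 libraries had the highest share of TPM, the length-scaled transcript abundance, on mitochondrially encoded genes, 3.002% in neutrophils and 19.9% in monocytes, and the fewest genes with at least 5 counts of their cell type. All 10 neutrophil markers tested were higher in neutrophils, with a summed level of 88042 to 137036 CPM (counts scaled to TMM library sizes) in neutrophils and 1598 to 3524 in monocytes. Of 10 monocyte markers 7 were lower in neutrophils, with a summed level of 975 to 1967 CPM in neutrophils and 2543 to 6539 in monocytes. The monocyte library TN2 tag_706 stood apart: its monocyte marker sum was the lowest of the 5 (2543 CPM), its alveolar macrophage marker sum the highest (676 CPM, against 92.8 to 135 in the others), and it had the most genes detected. Among neutrophils, TN2 tag_1341 had the highest monocyte marker sum, 1967 CPM, against 975 to 1193 in the others. In sorted bulk samples, fewer cells of a type and less RNA per cell cannot be told apart.

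The first question was how the listed genes differ between the sorted populations. Most granule transcripts were far more abundant in neutrophils: 22 of 33 genes were higher in neutrophils and 2 were lower past an adjusted p of 0.05 (edgeR quasi-likelihood test over 13384 genes, Benjamini-Hochberg). Among all genes tested, 27.9% passed, 12.4% higher and 15.5% lower, and before adjustment 40.9% of all genes and 25 of the 33 listed genes had p under 0.05. Limma on log2(TPM + 1) split all genes past the threshold into 1198 higher and 4532 lower, where edgeR gave 1663 higher and 2070 lower, and it split the listed genes into 21 higher and 4 lower. The median log2 difference of neutrophils minus monocytes was 3.38 over the listed genes, against -0.46 over all genes. In 20 of the 33 genes every neutrophil library lay above every monocyte library, and in none did all lie below, where 12.6% and 16% of all genes did so (28.5% together). The genes not past the threshold were Mpo, Elane, Ctsg, Chil3, Orm1, Ceacam1, Lyz1, Fcnb and Serpinb1a.

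**Figure D1:**
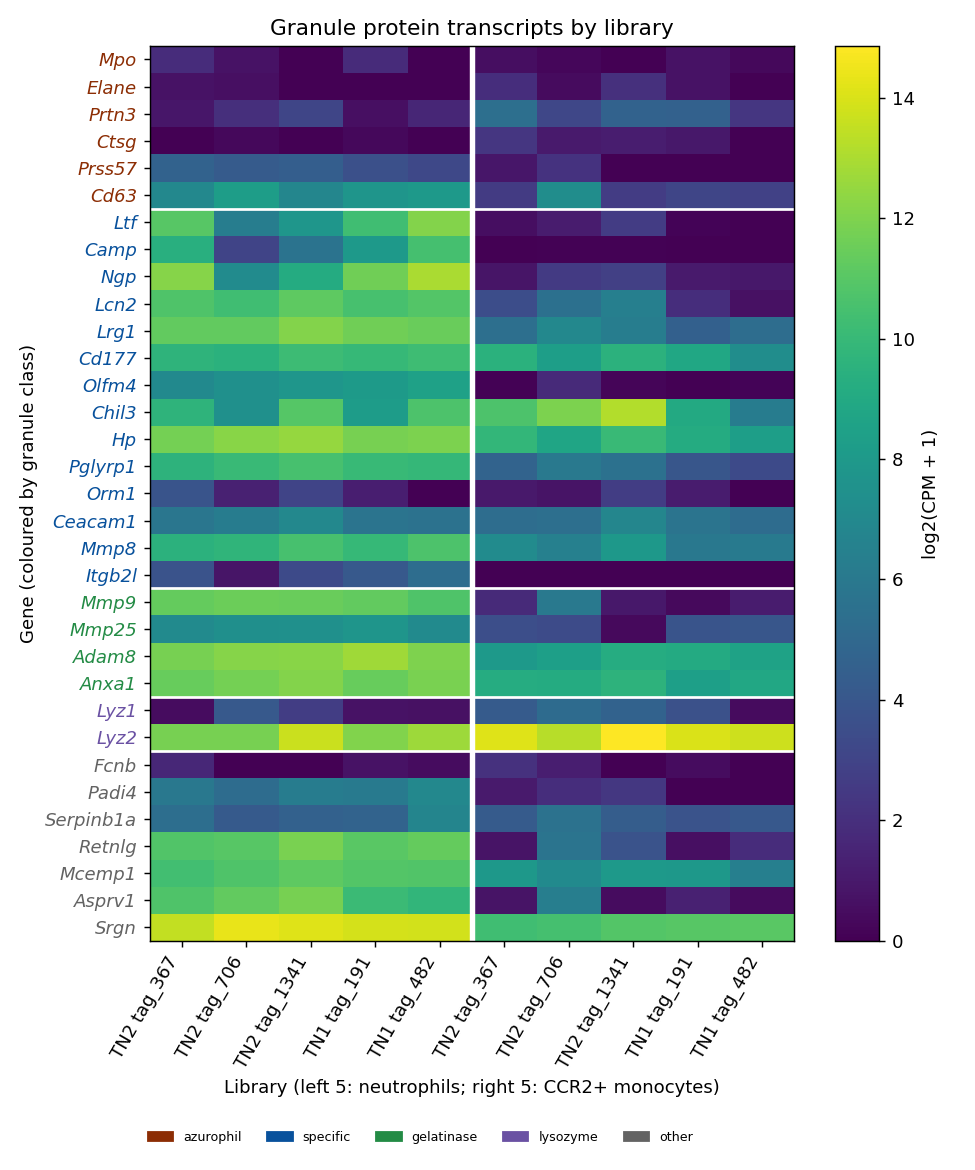
Level of each granule protein gene (rows, coloured by class) in each library (columns), as log2(CPM + 1). The 5 neutrophil libraries are left of the white line and the 5 monocyte libraries right of it; Mpo, Elane and Ctsg are dark in both, and Ltf, Camp and Ngp vary between neutrophil libraries by 54.6-fold to 195-fold.

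Azurophil granule genes did not form a neutrophil group. Transcripts of the classical azurophil proteins were at or near the limit of detection in sorted lung neutrophils. Mpo, the myeloperoxidase gene, had 21, 5 and 0 counts in TN2 neutrophils and 20 and 0 in TN1 neutrophils, against 6, 3 and 0 counts in TN2 monocytes and 6 and 2 in TN1 monocytes. No library of either cell type therefore held more than 2.66 CPM of it, and the populations were not separated (log2 difference 1.90 ± 1.52, adjusted p = 0.372). Elane, neutrophil elastase, had 5, 4 and 0 counts in TN2 neutrophils and 0 in both TN1 neutrophil libraries, against 39, 5 and 39 in TN2 monocytes and 6 and 0 in TN1 monocytes. Ctsg, cathepsin G, had 0, 2 and 0 counts in TN2 neutrophils and 2 and 0 in TN1 neutrophils, against 55, 16 and 16 in TN2 monocytes and 9 and 0 in TN1 monocytes. Both had more reads in monocytes, with log2 differences of -3.53 ± 1.62 (adjusted p = 0.135) and -3.08 ± 1.48 (adjusted p = 0.145), and did not pass. A count of 0 in a neutrophil library allows up to 3 counts, or 0.380 to 0.458 CPM, which covers counting error only.

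Prtn3, the proteinase 3 gene, was one of the 2 listed genes lower in neutrophils. It had 0.887, 2.95 and 7.48 CPM in TN2 neutrophils and 0.512 and 2.00 in TN1 neutrophils, against 41.6, 8.09 and 24.1 CPM in TN2 monocytes and 24.0 and 4.09 in TN1 monocytes. The ranges overlapped between the highest neutrophil library and the lowest monocyte library, TN1 tag_482. The log2 difference was -3.09 ± 0.88 (adjusted p = 0.0271, edgeR). Most of these reads were not on a coding model: the retained-intron transcript Prtn3-204, 786 bases long, took 86.7% of Prtn3 counts in neutrophils and 82.6% in monocytes. On the coding transcript Prtn3-201 the 5 neutrophil libraries summed to 3.39 estimated counts and the 5 monocyte libraries to 194. The call was lost without TN1 tag_191 neutrophils (adjusted p = 0.0863), TN2 tag_706 neutrophils (0.0569), TN1 tag_191 monocytes (0.107) or TN2 tag_367 monocytes (0.0783), and with the tag as a block (-2.94, adjusted p = 0.0849), each by edgeR.

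The remaining azurophil genes were higher in neutrophils. Prss57, the serine protease NSP4, had 24.2, 18.0 and 20.9 CPM in TN2 neutrophils and 11.4 and 8.15 in TN1 neutrophils, against 0.875, 3.50 and 0 in TN2 monocytes and 0 in both TN1 monocyte libraries (log2 difference 6.69 ± 1.44, adjusted p = 0.00912). Its values are uncertain, since 39.3% of its 31-base words also occur in transcripts of Fstl3, and the models that hold such words, Prss57-201 and Prss57-203, took 82.6% and 5.83% of its neutrophil counts. Cd63, a tetraspanin of azurophil granule membranes that is also in lysosomes of other cells, averaged 202 ± 85.5 CPM in neutrophils and 36.3 ± 67.6 CPM in monocytes (SD, n = 5 each). The monocyte mean rests on TN2 tag_706 with 157 CPM, since the other 4 monocyte libraries held 5.03 to 7.52 CPM. The log2 difference of Cd63 was 3.38 ± 0.97 (adjusted p = 0.0271, edgeR) with that library and 5.11 ± 0.42 (adjusted p = 7.14e-05) without it. It did not pass without TN1 tag_482 neutrophils (adjusted p = 0.055), TN2 tag_706 neutrophils (0.0546), TN1 tag_191 monocytes (0.069) or TN1 tag_482 monocytes (0.0822), each by edgeR. Of the 31-base words of Cd63, 40.8% are shared with the pseudogene Cd63-ps.

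Specific granule genes gave the largest differences of the list. Of 14, 11 were higher in neutrophils and none lower, with a median log2 difference of 5.72. Camp, the cathelicidin precursor, had 17492 counts over the 5 neutrophil libraries and 2 over the 5 monocyte libraries, a ratio of 13952 on the CPM scale with a 95% counting interval of 3862 to 115216. Ltf, lactoferrin, averaged 1590.3 ± 1753 CPM in neutrophils and 1.40 ± 2.19 CPM in monocytes, and Itgb2l, an integrin beta 2-like chain, had 572 counts in neutrophils and 0 in monocytes, at least 304-fold higher in neutrophils against a floor of 3 counts over the group. Ltf passed with a log2 difference of 11.85 ± 1.56 (adjusted p = 0.000546).

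Ngp, which encodes a cathelicidin-related granule protein, reached the highest CPM of the 3 genes printed above from chromosome 9. It had 4486, 145 and 553 CPM in TN2 neutrophils and 3231 and 7897 in TN1 neutrophils, against 0.802, 4.66 and 6.18 in TN2 monocytes and 1.07 and 0.963 in TN1 monocytes (log2 difference 10.60 ± 1.33, adjusted p = 0.000437). Lcn2, lipocalin 2, which binds bacterial siderophores, had 1715, 1240 and 2284 CPM in TN2 neutrophils and 1454 and 1888 in TN1 neutrophils, against 10.4, 43.5 and 85.1 in TN2 monocytes and 2.90 and 0.602 in TN1 monocytes (7.55 ± 0.74, adjusted p = 0.000143). Lrg1, leucine-rich alpha-2-glycoprotein, had 2506, 2491 and 4410 CPM in TN2 neutrophils and 3225 and 2808 in TN1 neutrophils, against 42.5, 124 and 76.2 in TN2 monocytes and 22.5 and 38.0 in TN1 monocytes (5.96 ± 0.42, adjusted p = 5.09e-05). In all of these every neutrophil library lay above every monocyte library. Hp, haptoglobin, an acute-phase protein that neutrophils also store, was less exclusive, with 3442, 4785 and 5819 CPM in TN2 neutrophils and 3597 and 3927 in TN1 neutrophils, against 919, 426 and 1057 in TN2 monocytes and 559 and 315 in TN1 monocytes (2.83 ± 0.33, adjusted p = 0.000313).

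The other specific granule genes that passed were Olfm4, olfactomedin 4, at 231 ± 89.7 CPM in neutrophils and 0.550 ± 1.04 in monocytes, Pglyrp1, a peptidoglycan recognition protein, at 1053 ± 249.8 CPM in neutrophils and 31.6 ± 22.2 in monocytes, and Mmp8, neutrophil collagenase, at 1148 ± 409 CPM in neutrophils and 121 ± 76.3 in monocytes (SD, n = 5 each). Cd177, a glycosylphosphatidylinositol-anchored surface protein used as a neutrophil antigen, differed least among those that passed: 982 ± 218 CPM in neutrophils and 476 ± 251 CPM in monocytes, with overlapping ranges. Its log2 difference was 1.23 ± 0.36 (adjusted p = 0.0277, edgeR). It missed the threshold without TN1 tag_482 neutrophils (adjusted p = 0.0787), TN2 tag_1341 neutrophils (0.0561) or TN1 tag_482 monocytes (0.132), by edgeR, and with limma on log2(TPM + 1) (0.189).

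Chil3, Orm1 and Ceacam1 were the specific granule genes that did not separate the populations. Chil3, the chitinase-like protein Ym1, which alveolar macrophages also make, had 818, 173 and 2001 CPM in TN2 neutrophils and 297 and 1658 in TN1 neutrophils, against 1672, 3931 and 9224 in TN2 monocytes and 519 and 73.8 in TN1 monocytes. Its log2 difference was -0.29 ± 0.80 (adjusted p = 0.811, edgeR), a value that took the other sign without TN1 tag_191 neutrophils (0.09), TN1 tag_191 monocytes (0.74) or TN2 tag_1341 monocytes (0.20). Orm1, an acute-phase orosomucoid, had 13.3, 1.61 and 7.17 CPM in TN2 neutrophils and 1.41 and 0 in TN1 neutrophils, against 1.02, 0.754 and 5.54 in TN2 monocytes and 1.18 and 0 in TN1 monocytes (0.92 ± 1.34, adjusted p = 0.636). Ceacam1, an adhesion molecule of the carcinoembryonic antigen family, had 56.5, 73.9 and 120 CPM in TN2 neutrophils and 52.6 and 48.1 in TN1 neutrophils, against 38.9, 42.2 and 113 in TN2 monocytes and 51.1 and 36.6 in TN1 monocytes (0.29 ± 0.38, adjusted p = 0.598). Values of these 3 genes are uncertain for another reason: 59.5% of the 31-base words of Ceacam1 are shared, mainly with Ceacam2, 29.0% of those of Chil3 with Chil4 and 27.5% of those of Orm1 with Orm2.

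All 4 gelatinase granule genes were higher in neutrophils, with a median log2 difference of 3.80, and in each of them no monocyte library reached the neutrophil range. Mmp9, gelatinase B, for which the granule is named, averaged 2519.8 ± 482.3 CPM in neutrophils and 13.6 ± 27.7 CPM in monocytes (9.20 ± 1.36, adjusted p = 0.00102). Most of the monocyte Mmp9 was in TN2 tag_706, with 63.1 CPM against 0.322 to 2.41 in the other 4. Without that library the log2 difference of Mmp9 was 11.06 ± 0.52 (adjusted p = 7.35e-06, edgeR). Anxa1, annexin A1, a calcium-dependent membrane-binding protein that restrains inflammation, had 2705, 3441 and 4352 CPM in TN2 neutrophils and 2717 and 3760 in TN1 neutrophils, against 578, 563 and 786 in TN2 monocytes and 333 and 480.0 in TN1 monocytes (2.72 ± 0.25, adjusted p = 0.000104). Adam8, a membrane metalloprotease, averaged 4749 ± 1204 and Mmp25, leukolysin, 167 ± 32.8 CPM in neutrophils, against 421 ± 143 and 9.73 ± 5.68 CPM in monocytes (SD, n = 5 each).

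**Figure D2:**
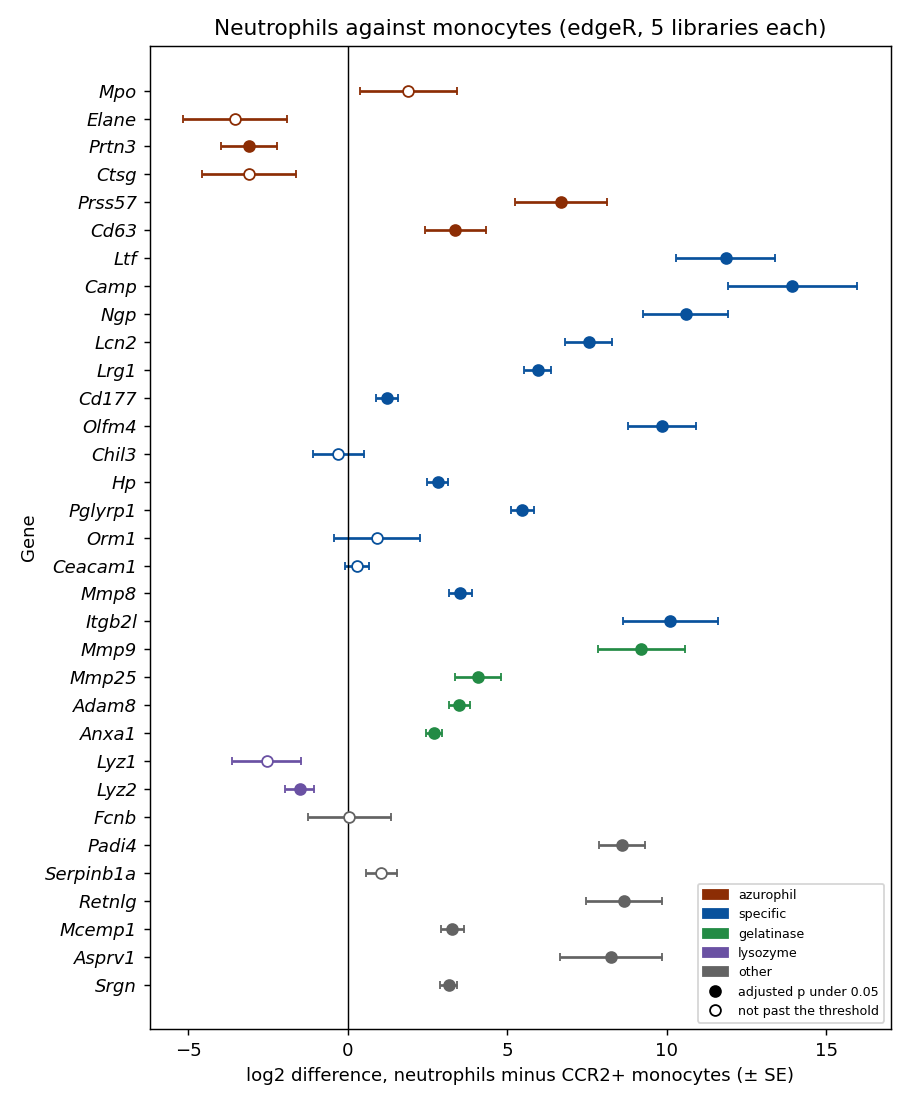
Log2 difference of neutrophils minus CCR2+ monocytes (x axis, ± SE, edgeR, 5 libraries each) for each gene, coloured by class; filled points passed an adjusted p of 0.05. Specific and gelatinase genes lie to the right of 0 apart from Chil3, and Prtn3 and Lyz2 are the filled points to the left.

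The lysozyme genes ran the other way. Lyz2, the lysozyme of mouse macrophages and neutrophils, had 3573, 3524 and 12950.5 CPM in TN2 neutrophils and 4141 and 6624 in TN1 neutrophils, against 18059, 9751 and 29683 in TN2 monocytes and 16790 and 13402 in TN1 monocytes. The ranges overlapped through TN2 tag_1341 neutrophils, the library with the highest monocyte marker sum of its cell type; the part of that in the result was not tested. Lyz2 fell by 1.504 ± 0.47 on the log2 scale in neutrophils relative to monocytes (adjusted p = 0.0371, edgeR). The call was lost when any 1 of 8 libraries was left out, that is, any but TN2 tag_1341 neutrophils and TN2 tag_706 monocytes, with adjusted p of 0.0665 to 0.122 (edgeR). Lyz1, known from Paneth cells of the gut, had 0.380, 16.7 and 5.49 CPM in TN2 neutrophils and 0.640 and 0.572 in TN1 neutrophils, against 17.9, 35.3 and 24.7 in TN2 monocytes and 11.7 and 0.361 in TN1 monocytes (-2.54 ± 1.07, adjusted p = 0.104). DESeq2 called it lower (adjusted p = 0.0298). Of their 31-base words Lyz1 shares 34.2% with Lyz2 and Lyz2 32.8% with Lyz1, so reads of the abundant gene could be counted on the rare one.

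Of the 7 other granule genes, 5 were higher in neutrophils and none lower. Srgn, serglycin, the proteoglycan core on which granule proteases are packed, was the most abundant of the list per length in neutrophils. It had 11754, 21434 and 17767 CPM in TN2 neutrophils and 15549 and 14530 in TN1 neutrophils, against 1284, 1423 and 1915 in TN2 monocytes and 2015 and 2090 in TN1 monocytes (3.17 ± 0.26, adjusted p = 8.17e-05). Retnlg, resistin-like gamma, a secreted protein of mouse neutrophils, had 1779, 2030 and 3736 CPM in TN2 neutrophils and 2125 and 2583 in TN1 neutrophils, against 0.729, 52.0 and 12.8 in TN2 monocytes and 0.537 and 2.77 in TN1 monocytes (8.66 ± 1.18, adjusted p = 0.000643). Both were separated completely. Padi4, which citrullinates histones, averaged 72.4 ± 30.9 CPM in neutrophils and 1.65 ± 1.90 in monocytes, Mcemp1, a membrane protein first found in mast cells, 1810.0 ± 363 and 194 ± 78.8, and Asprv1, an aspartic protease best known from skin, 1961 ± 1115 and 16.9 ± 35.998 CPM, with neutrophils given first in each (SD, n = 5 each).

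Fcnb and Serpinb1a did not pass. Fcnb, a ficolin that recognises microbial sugars, had 17, 0 and 0 counts in TN2 neutrophils and 5 and 3 in TN1 neutrophils, against 47, 20 and 0 in TN2 monocytes and 4 and 0 in TN1 monocytes, so its direction could not be measured at this depth (0.06 ± 1.31, adjusted p = 0.988). Serpinb1a, an inhibitor of neutrophil serine proteases, had 39.5, 17.5 and 24.0 CPM in TN2 neutrophils and 25.1 and 107 in TN1 neutrophils, against 18.4, 46.6 and 19.7 in TN2 monocytes and 13.2 and 15.8 in TN1 monocytes (1.06 ± 0.49, adjusted p = 0.135, edgeR). It passed when TN1 tag_191 neutrophils were left out (1.41, adjusted p = 0.0406, edgeR).

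Per length, the listed genes took 4.78% to 5.72% of all TPM in neutrophils and 1.92% to 6.45% in monocytes. The monocyte share rests largely on Lyz2, with 14749 to 44074 TPM. In neutrophils the order by mean TPM began with Srgn at 17676, then Retnlg at 5088, Lyz2 at 4712, Anxa1 at 4285, Hp at 3151, Ngp at 2878, Lrg1 at 2247 and Lcn2 at 2036 TPM. Srgn, at 15105 to 22454 TPM, was above the range of every other listed gene, while the ranges of Retnlg, Lyz2, Anxa1 and Ngp overlapped. The TPM of Anxa1 is uncertain, since transcripts under 400 bases held 79.4% of it in TN2 tag_706 neutrophils but only 0.293% of its counts. The specific granule class summed to 17268, 9193 and 13588 TPM in TN2 neutrophils and 13855 and 22816 in TN1 neutrophils, against 3890, 6780 and 13673 in TN2 monocytes and 1608 and 571 in TN1 monocytes. Chil3 alone held 1939, 5256 and 11047 TPM of the TN2 monocyte sums and 543 and 64.6 TPM of the TN1 ones. Azurophil genes summed to only 136 to 373 TPM in neutrophils, most of it Cd63 at 115 to 356 TPM.

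Genes that serve granules without being stored in them gave a mixed picture. Of the granule sorting and release machinery, 13 of 19 genes were higher in neutrophils and 1 lower, with a median log2 difference of 1.51. Stx11, a syntaxin of membrane fusion, averaged 1362 ± 391 CPM in neutrophils and 57.8 ± 8.61 in monocytes, Lyst, which controls lysosome size, 210.4 ± 20.3 and 13.2 ± 6.46, and Snap23, a fusion partner of syntaxins, 1707 ± 430.1 and 154 ± 33.1 CPM, neutrophils first (SD, n = 5 each). The gene that was lower was Stx3, named after its values were seen, at -3.86 ± 0.50 (adjusted p = 0.000521, edgeR). Of 19 other granule and lysosome genes tested, 7 were higher and 6 lower in neutrophils. Fpr1, the formyl peptide receptor, was higher (7.43 ± 0.91), while Lamp1, a lysosomal membrane protein, fell by 2.45 ± 0.25 and Ctsz, a lysosomal cathepsin, by 2.26 ± 0.28 on the log2 scale. Of 13 regulators of granulocyte development tested, 3 were higher, namely Csf3r, which encodes the G-CSF receptor (5.71 ± 0.33), Spi1, which encodes PU.1 (2.13 ± 0.24), and Cebpb, and Irf8, a regulator of the monocyte lineage, was lower (-4.68 ± 0.86). Cebpe, which drives specific granule genes during maturation, stood at 1.02 to 4.58 CPM in neutrophils and 0.120 to 5.62 CPM in monocytes. Of 10 genes of cycling cells none passed with edgeR, although 2 reached p under 0.05 before adjustment.

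The next question, and the one the design states, was whether neutrophils of mice with the low metastatic tumour differ from those of mice with the highly metastatic one. None of the 33 genes passed in TN2 against TN1 neutrophils with edgeR or limma, none of the 26 that DESeq2 gave an adjusted p passed with it, and 0% of all 13384 genes passed with edgeR (87 genes with DESeq2, 1 or 3 with limma). At an unadjusted p under 0.05 edgeR counted 0 of the 33 genes, against 4.67% of all genes. The median log2 difference of TN2 minus TN1 was 0.06 over the list, against 0.22 over all genes, and the list median took the other sign with RLE scaling (-0.03), with limma (-0.07) and when any 1 of 6 libraries was left out (range over all 10 such fits -0.18 to 0.14). Groups did not overlap in 5 genes higher in TN2 (Prss57, Orm1, Ceacam1, Mmp9 and Asprv1) and 2 lower (Olfm4 and Itgb2l), where 11.8% and 5.91% of all genes did so (17.7% together).

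Among genes at 100 CPM or more, the largest differences lay in Ltf, Camp and Ngp, and in each of them the tumour groups overlapped. Below that level, Lyz1 (3.60 ± 1.68), Orm1 (3.35 ± 2.14) and Itgb2l (-1.89 ± 1.24) had log2 differences of that size or larger that did not pass, and Elane had reads only in TN2 neutrophils, 9 in all. Ltf had 2008, 77.3 and 221 CPM in TN2 neutrophils, against 1255 and 4390 in TN1 neutrophils. Camp had 669, 7.25 and 48.7 CPM in TN2 neutrophils, against 251 and 1412 in TN1 neutrophils. Ngp had 4486, 145 and 553 CPM in TN2 neutrophils, against 3231 and 7897 in TN1 neutrophils. In each gene TN2 tag_706 was lowest, TN2 tag_1341 next and TN1 tag_482 highest, while TN2 tag_367 lay above TN1 tag_191, so the groups overlapped. The log2 differences were -1.88 ± 1.23 for Ltf, -1.78 ± 1.39 for Camp and -1.69 ± 1.14 for Ngp, with adjusted p of 0.943 in each (edgeR).

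Itgb2l followed nearly the same order, with 12.8, 0.806 and 9.004 CPM in TN2 neutrophils, against 16.8 and 39.3 in TN1 neutrophils. The order of the 5 libraries in Ltf, noted after its values were seen, was also that of 3 other listed genes, Camp, Ngp and Serpinb1a. With Ltf, which matches its own order by definition, that made 4 of 33 listed genes, against 79 of all 13384 genes tested (0.59%). Since the order was taken from these same values, the 2 shares are not a test. Highest over lowest library, Camp spanned 195-fold, Ltf 56.8-fold, Ngp 54.6-fold and Itgb2l 48.8-fold among neutrophils. Several other specific and gelatinase granule genes were steadier: Hp spanned 1.69-fold, Lrg1 1.77-fold, Lcn2 1.84-fold, Mmp9 1.72-fold and Anxa1 1.61-fold. Orm1 ran between 0 and 13.3 CPM, with its highest level in TN2 tag_367. Chil3 spanned 11.5-fold, but with its highest level, 2001 CPM, in TN2 tag_1341, where Ltf was low. Summed levels of the 10 genes of cycling cells were 72.5, 28.7 and 29.5 CPM in TN2 neutrophils and 34.6 and 60.1 in TN1 neutrophils, so the 3 libraries with the highest Ltf also had the highest such sums. The genes within that sum did not run together. In TN1 tag_482 its largest parts were Mcm5 (21.5 CPM), Stmn1 (13.6) and Cdk1 (10.4). Mki67 (3.29 CPM) and Top2a (1.72) were lowest of the 5 neutrophil libraries there. The part of cycling cells in the spread of Ltf, Camp and Ngp was not tested.

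**Figure D3:**
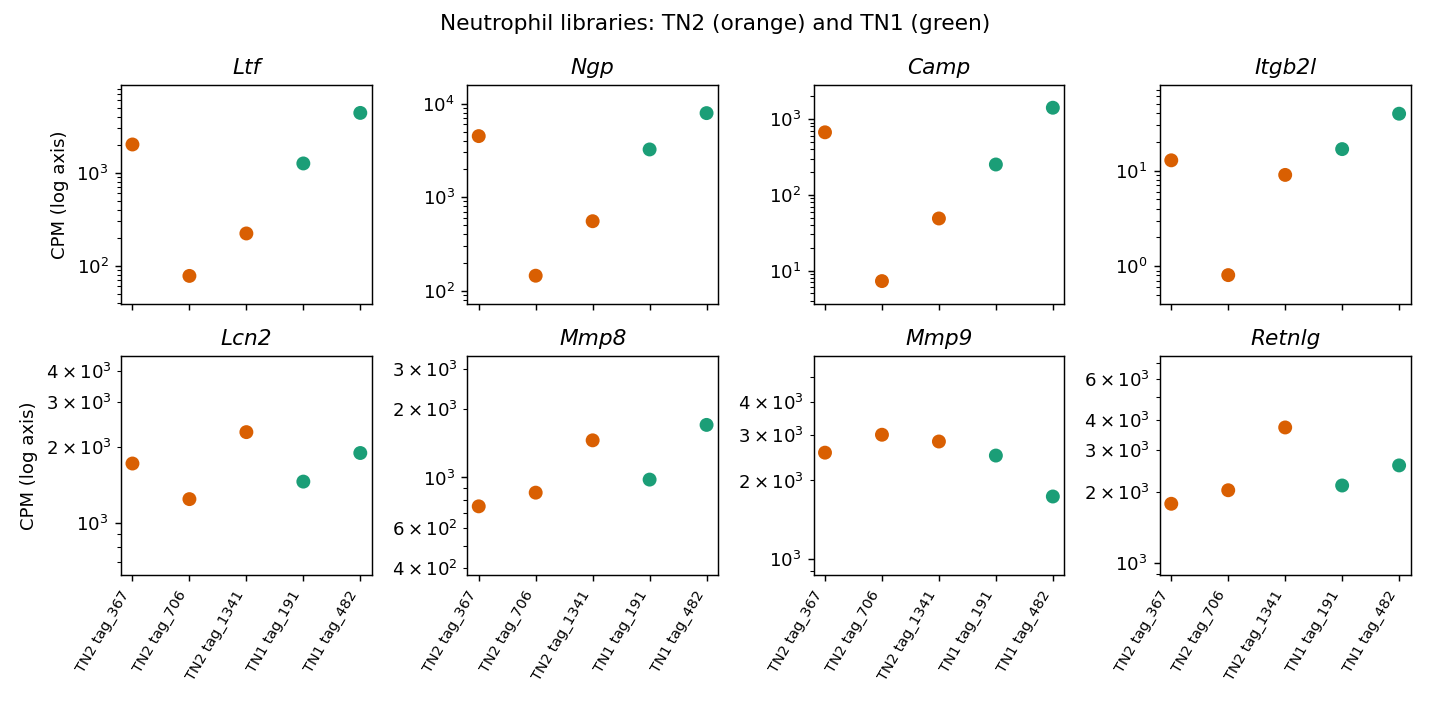
CPM on log axes of 8 granule genes in each neutrophil library, TN2 in orange and TN1 in green. Ltf, Ngp, Camp and Itgb2l are lowest in TN2 tag_706 and highest in TN1 tag_482 with a span of 48.8-fold to 195-fold, while Lcn2, Mmp8, Mmp9 and Retnlg span 1.72-fold to 2.27-fold.

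Among neutrophils Asprv1 spanned 4.11-fold, and every TN2 library lay above both TN1 libraries. It had 1713, 2452 and 3636 CPM in TN2 neutrophils, against 1121 and 884 in TN1 neutrophils. Its log2 difference was 1.37 ± 1.61 (adjusted p = 0.966, edgeR). That error takes in the spread between monocyte libraries, where TN2 tag_706 stood far apart for this gene; without that library it was 1.24 ± 0.47 (adjusted p = 0.991). Olfm4 had 129, 172 and 220 CPM in TN2 neutrophils, against 274 and 359 in TN1 neutrophils, without overlap (-0.87 ± 0.89, adjusted p = 0.954, and -1.005 ± 0.37, adjusted p = 0.991, without TN2 tag_706 monocytes). Mmp9 had 2556, 2994 and 2820 CPM in TN2 neutrophils, against 2492 and 1737 in TN1 neutrophils (0.40 ± 1.27, adjusted p = 1.0, and 0.28 ± 0.43, adjusted p = 0.995, without TN2 tag_706 monocytes). In the authors' deposited table, made with AltAnalyze per the series' design text, Prss57 (p = 0.00159), Olfm4 (p = 0.00749) and Asprv1 (p = 0.00857) were the 3 listed genes with p under 0.05 in neutrophils, and the smallest adjusted p of any listed gene there was 1.0.

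In CCR2+ monocytes the same question gave mostly positive values, none past the threshold with edgeR or limma. Again 0% of all genes passed with edgeR, and DESeq2 called 2 of the 30 genes it gave an adjusted p. At an unadjusted p under 0.05 edgeR counted 10 of the 33 genes, against 2.83% of all genes, and 5 of the 10 neutrophil markers did so too, each with a positive difference. The log2 difference of TN2 minus TN1 was positive in 28 genes and negative in 4, with a median of 1.91 over the list, against 0.22 over all genes. The list median was 1.87 with 2 genes at 0 counts in a group set to their bounds and 2 genes with 3 counts or fewer in each group set to no difference. In 11 genes every TN2 monocyte library lay above both TN1 libraries and in 2 below, where 12.4% and 7.73% of all genes did so (20.1% together). The 11 were Ctsg, Ltf, Lcn2, Lrg1, Chil3, Pglyrp1, Mmp8, Anxa1, Lyz1, Padi4 and Serpinb1a, and the 2 were Mmp25 and Srgn. The TN1 tag_482 monocytes, which had 19.9% of TPM on mitochondrially encoded genes against 4.82% to 5.82% in the other 4 monocyte libraries, were the lowest library in 15 of the 31 listed genes with at least 10 counts in monocytes. Without that library the list median was 1.36, with 27 genes positive and 5 negative, and without TN2 tag_1341 monocytes it was 1.24, with 25 positive and 6 negative. The part of RNA quality in these values was not tested.

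**Figure D4:**
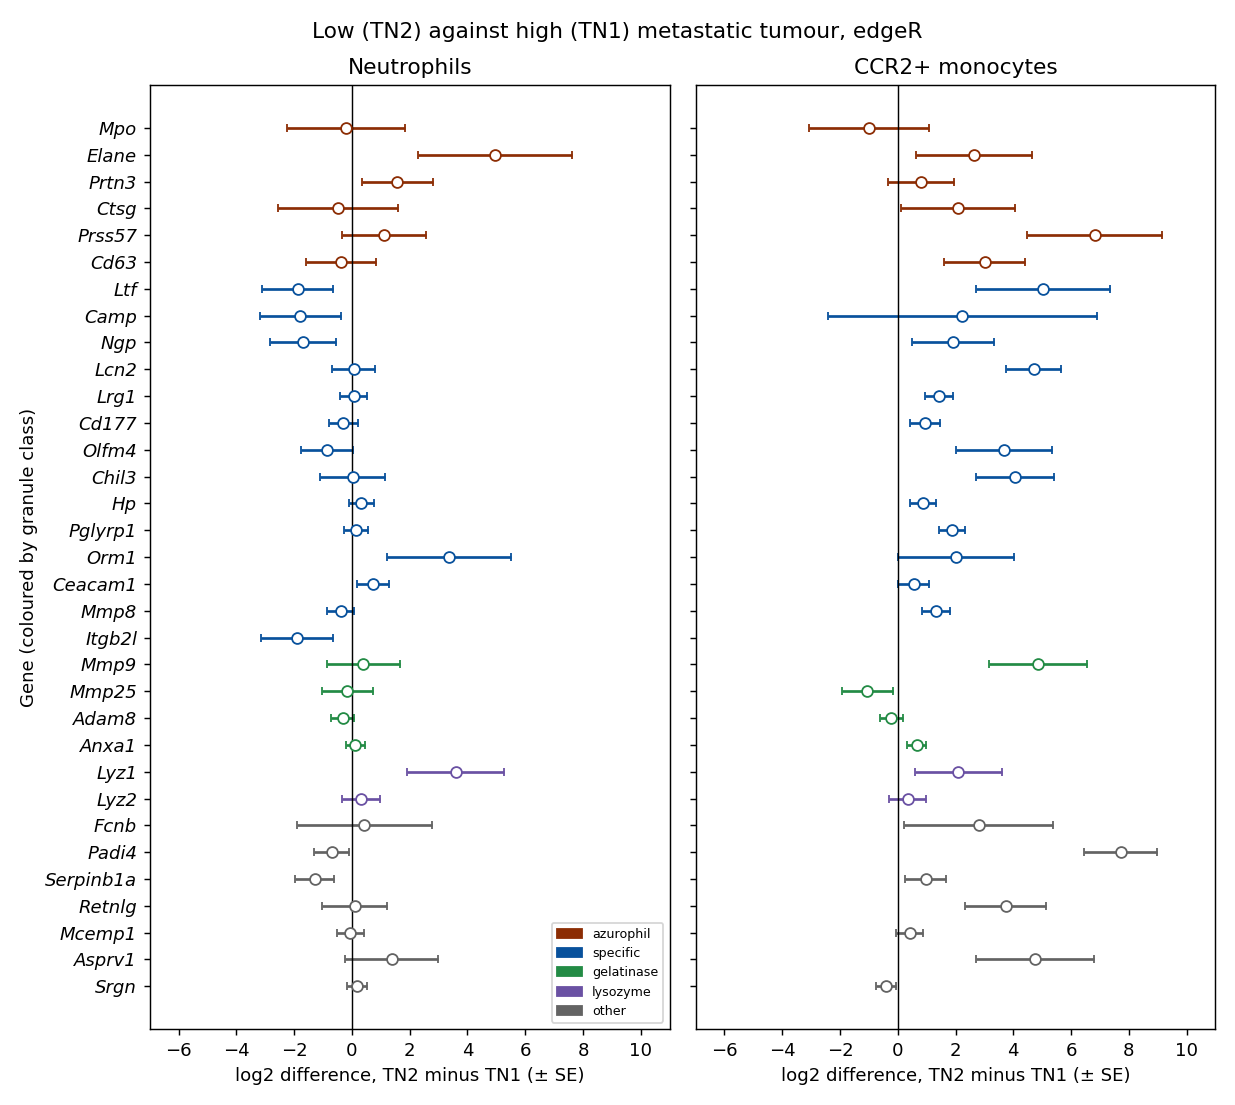
Log2 difference of TN2 minus TN1 (x axis, ± SE, edgeR) in neutrophils (left) and CCR2+ monocytes (right) for each gene, coloured by class; no gene passed an adjusted p of 0.05, and Itgb2l, with 0 counts in monocytes, has no point at the right. The neutrophil values scatter around 0 with a median of 0.06 and the monocyte values lie mostly right of 0 with a median of 1.91.

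Among genes at 100 CPM or more, Chil3 had the largest difference between the monocyte groups. It had 1672, 3931 and 9224 CPM in TN2 monocytes, against 519 and 73.8 in TN1 monocytes, a log2 difference of 4.06 ± 1.36 (unadjusted p = 0.0137, adjusted p = 1.0, edgeR). The alveolar macrophage marker sum, 92.8, 676 and 114 CPM in TN2 monocytes and 135 and 131 in TN1 monocytes, was highest in TN2 tag_706, while Chil3 was highest in TN2 tag_1341. Mmp8 had 145, 87.9 and 244 CPM in TN2 monocytes, against 60.5 and 66.9 in TN1 monocytes (1.32 ± 0.48, adjusted p = 1.0). Cd177 had 703, 319 and 746 CPM in TN2 monocytes, against 454 and 157 in TN1 monocytes (0.95 ± 0.51), and here the groups overlapped.

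Hp had 919, 426 and 1057 CPM in TN2 monocytes, against 559 and 315 in TN1 monocytes (0.87 ± 0.44). Anxa1 had 578, 563 and 786 CPM in TN2 monocytes, against 333 and 480.0 in TN1 monocytes, without overlap (0.66 ± 0.33). Srgn ran the other way, with 1284, 1423 and 1915 CPM in TN2 monocytes, all below the 2015 and 2090 of TN1 monocytes (-0.41 ± 0.34). The adjusted p of each of these 3 genes was 1.0 with edgeR.

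Lcn2 and Padi4, the genes that DESeq2 called, were less abundant, and with Pglyrp1 they are named after their values were seen. Lcn2 had 10.4, 43.5 and 85.1 CPM in TN2 monocytes, against 2.90 and 0.602 in TN1 monocytes, and Padi4 had 1.09, 2.81 and 4.35 CPM in TN2 monocytes, against 0 in both TN1 libraries. For Lcn2 the log2 difference was 4.70 ± 0.96 with edgeR (unadjusted p = 0.000654, adjusted p = 1.0) and 4.68 with DESeq2 (adjusted p = 0.000296). For Padi4 the TN2 libraries held 111 counts and the TN1 libraries 0, at least 15.9-fold higher in TN2 against a floor of 3 counts over the group (DESeq2 adjusted p = 0.0158, edgeR adjusted p = 1.0). Pglyrp1 had 25.6, 62.9 and 45.4 CPM in TN2 monocytes, against 15.0 and 9.27 in TN1 monocytes (1.87 ± 0.45, unadjusted p = 0.00205, adjusted p = 1.0, edgeR).

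The monocyte values have to be read beside the neutrophil transcripts that these libraries hold. The summed level of 10 neutrophil markers was 1890, 3524 and 3479 CPM in TN2 monocytes and 1598 and 1741 in TN1 monocytes, against 88042 or more in every neutrophil library. In TN2 tag_706 monocytes, several granule genes stood far above the other monocyte libraries: Asprv1 at 81.3, Mmp9 at 63.1 and Retnlg at 52.0 CPM. Relative to the neutrophil library with the same tag these levels were 3.31%, 2.11% and 2.56%, where the 10 neutrophil markers stood between 2.24% (Cxcr2) and 4.24% (Trem1) and their sum at 3.15%. Chil3, at 2266% of the neutrophil level, and Cd63, at 51.3%, were far above that range in the same library. Other listed genes were above it too, among them Lyz2 (277%), Prtn3 (274%), Serpinb1a (267%), Ceacam1 (57.1%), Cd177 (45.1%) and Mmp8 (10.2%). Below it, with Mmp9, were Ltf (1.60%), Olfm4 (1.40%), Camp (0.946%) and Itgb2l (0%).

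TN2 tag_1341 monocytes showed another profile. There Lcn2 stood at 3.73%, Ltf at 2.36% and Ngp at 1.12% of the neutrophil library with that tag, but Mmp9 at 0.0337% and Asprv1 at 0.0109%. The percents of Ltf and Ngp rest on low neutrophil levels for that tag, 221 and 553 CPM, against 4390 and 7897 CPM in TN1 tag_482 neutrophils. In TN2 tag_1341 monocytes the 10 neutrophil markers ranged widely, from S100a9 at 0.212% and S100a8 at 1.09% to Csf3r at 2.20%, Il1r2 at 3.15%, Mxd1 at 3.84% and Trem1 at 8.996%, with their sum at 2.54%. In the TN1 monocyte libraries Lcn2 stood at 0.199% and 0.0319%, and Mmp9 at 0.0129% and 0.0693%, with marker sums at 1.59% and 1.77%. Single markers ranged from S100a9 at 0.0266% to Trem1 at 5.17% in tag_191, and from Ly6g at 0% to Trem1 at 6.86% in tag_482. Trem1 alone held 838 of 1598 CPM and 766 of 1741 CPM of these sums, which therefore do not stand for each marker. Without TN2 tag_706 monocytes the median log2 difference of TN2 minus TN1 over the list was 1.24, with 26 genes positive and 6 negative. That of Mmp9 was then 1.17 ± 0.61 in place of 4.86 ± 1.70, that of Asprv1 -0.80 ± 0.67 in place of 4.76 ± 2.04 and that of Cd63 -0.43 ± 0.52 in place of 3.004 ± 1.40. Those of Lcn2 (4.73 ± 0.996), Chil3 (4.19 ± 1.42) and Pglyrp1 (1.55 ± 0.40) moved by less than 1 SE. How far neutrophil RNA in the monocyte libraries enters these values was not tested beyond this.

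**Figure D5:**
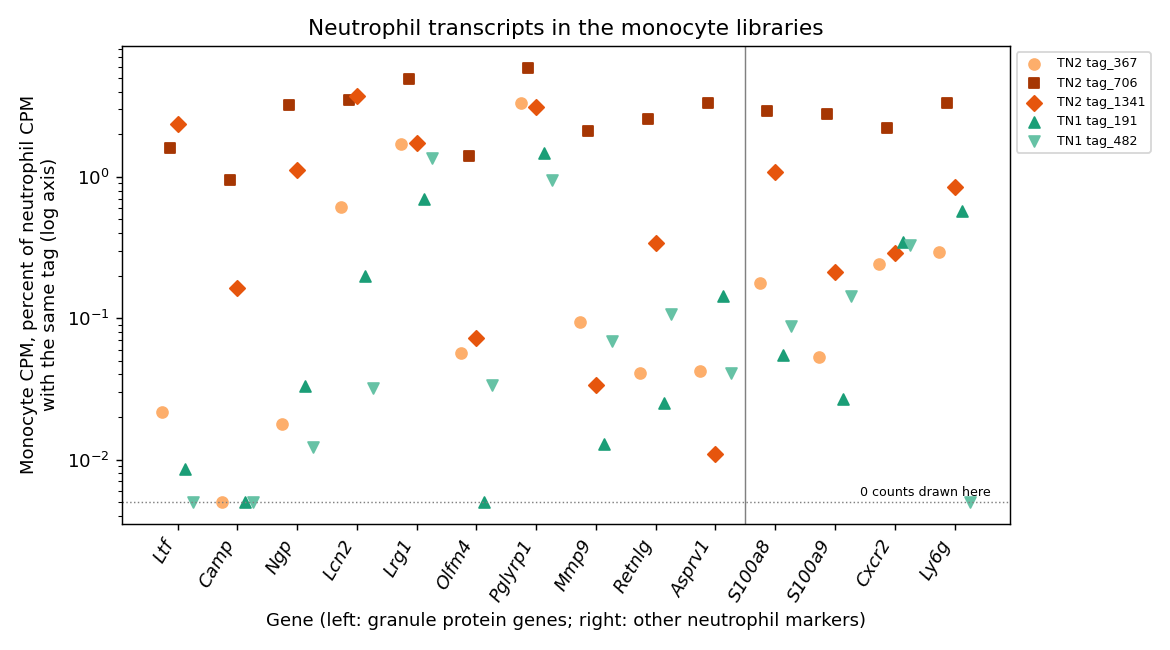
CPM in each monocyte library as a percent of the CPM in the neutrophil library with the same tag (log axis), for 10 granule genes left of the line and 4 of the 10 neutrophil markers right of it; libraries with 0 counts are drawn on the dotted line. TN2 tag_706 (dark squares) lies between 0.946% and 5.93% for every gene shown, whereas TN2 tag_1341 (orange diamonds) ranges from 0.0109% for Asprv1 to 3.73% for Lcn2. The 0.946% is that of Camp, with 1 count in the monocyte library and 54 in the neutrophil library. Of the markers not drawn, Csf3r, G0s2 and Acod1 were highest in TN2 tag_706. Trem1 (4.24%) and Mxd1 (3.39%) were lowest there, and Il1r2 (2.97%) was neither.

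Whether the tumour difference itself differs between the cell types was tested as the TN2 minus TN1 effect in neutrophils minus that in monocytes. With edgeR none of the 33 genes passed, 0% of all genes passed, and 8 of the 33 genes had an unadjusted p under 0.05, against 3.53% of all genes. DESeq2 called 2 of the 26 genes it gave an adjusted p, and limma none. Those called by DESeq2 were Lcn2 (-4.71, adjusted p = 0.0323) and Padi4 (-7.76, adjusted p = 0.0171), and edgeR gave -4.64 ± 1.15 for Lcn2 (unadjusted p = 0.00245, adjusted p = 1.0). Chil3 stood at -4.03 ± 1.66 (unadjusted p = 0.036, adjusted p = 1.0), with a difference of 0.03 ± 1.13 in neutrophils and 4.06 ± 1.36 in monocytes. The list median was -1.73, against 0.03 over all genes, and -1.06 without TN2 tag_706 monocytes. In the authors' deposited table for monocytes, 7 of the listed genes had p under 0.05, and their smallest adjusted p was 1.0. Of the 19 granule machinery genes, 19 lysosomal genes, 13 regulators and 10 cycling genes none passed in either tumour comparison with edgeR, and before adjustment 0 or 1 of each list reached p under 0.05.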

How the data were processed

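RNA of 10 sorted lung libraries was quantified with kallisto 0.42.3 against GRCm38 transcripts, per the series' design text. The deposited files give estimated counts, TPM and effective lengths per transcript, per the file headers. The authors' deposited comparison tables give group means as log2(TPM + 1) with raw and adjusted p-values, from AltAnalyze per the series' design text. Gene values are sums over transcripts assigned by GENCODE mouse release 21, which matched 96.0% of transcripts, and the unmatched rest held 1.94% to 3.59% of counts. Chil3 and Mcemp1 were matched by identifier, since the comparison tables list them as Chi3l3 and 1810033B17Rik. Whether the libraries keep strand is not given in the sources used here.

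Estimated counts per gene were rounded and fitted with edgeR 4.0.16 (R 4.3.3), in 1 quasi-likelihood model of 4 groups with TMM scaling, after a filter on low counts (filterByExpr, minimum total count 10) that left 13384 genes. Values of p were adjusted over all of them by Benjamini-Hochberg, with a threshold of 0.05. The 6 residual degrees of freedom and a common biological coefficient of variation of 0.887 limit what could be detected. Standard errors were derived from the F statistic. CPM compare a gene between libraries, and TPM compare genes within a library. Libraries held 7239218 to 11311370 counts, and a count of 0 allows up to 3 counts; intervals and floors cover counting error only. Alternatives were DESeq2 1.42.0, limma 3.58.1 on log2(TPM + 1) and log2(TPM + 0.1), RLE scaling, no filter, a block for the tag, and leaving out each library; fits of each cell type alone were chosen after seeing the data. The fit was tested on simulated data.

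The members and the other lists were chosen with earlier results of these data known. Values per library are given for the 8 members highest in neutrophils by TPM, for members lower in neutrophils and for those not past the threshold, and in each tumour comparison for the 6 members with the largest difference among those at 100 CPM or more. Summed marker levels of other cells were 85.6 to 191 CPM in neutrophils and 92.8 to 676 in monocytes for alveolar macrophages, and at most 22.7 CPM for eosinophils, basophils and mast cells, 190.4 for erythroid cells, 171 for epithelium and 195 for lymphocytes and NK cells in any library.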

Additional observations from a re-analysis of the deposited data

Results flagged for a closer look

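A library was called far from the other 4 when its gap to the next value exceeded 0.71 of the range of the 5. For independent normal values that happens in about 1 in 20 sets. Values here are CPM, many near 0, and the sets share libraries, so the rate by chance is not known. Among 62 sets of 5 libraries of 1 cell type examined, 11 held such a library. Of these, 7 were the TN2 tag_706 monocytes: Cd63 at 157 CPM (next highest 7.52), Asprv1 at 81.3 (1.61), Mmp9 at 63.1 (2.41), Retnlg at 52.0 (12.8), Serpinb1a at 46.6 (19.7), Prss57 at 3.50 (0.875) and Olfm4 at 2.40 CPM (0.158). That library also had the highest neutrophil and alveolar macrophage marker sums among monocytes, 3524 and 676 CPM, and the part of these in the values was not tested. TN2 tag_1341 monocytes were far above the others in Ceacam1 at 113 CPM (next highest 51.1), Orm1 at 5.54 (1.18) and Ltf at 5.23 CPM (1.23). Among neutrophils, TN1 tag_482 held 107 CPM of Serpinb1a, against 39.5 in the next library.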

How the results depend on the processing

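Of the 33 granule genes, 24 passed between neutrophils and monocytes, and 22 to 25 did so with DESeq2, limma, RLE scaling or no filter, with 21 to 24 when single libraries were left out; no gene past the threshold changed sign in these settings. DESeq2 gave no adjusted p for Camp, Cd63 and Mmp9, which are therefore not among its calls. Other calls lost were those of Prtn3, Cd63, Cd177 and Lyz2, given above; calls gained were Ctsg with limma (adjusted p = 0.0199 and 0.0404), Lyz1 with DESeq2 and limma (0.0298, 0.0275 and 0.049) and Serpinb1a without TN1 tag_191 neutrophils. Over all genes 3733 passed, against 5730 with limma on log2(TPM + 1) and 2682 to 3861 with a library left out. In the tumour comparison of neutrophils, 0 genes passed with edgeR, against 87 with DESeq2, 1 and 3 with limma, 2 without a filter and 0 to 506 with a library left out, the highest without TN1 tag_191 neutrophils. In monocytes DESeq2 called 2 granule genes and 22 genes in all, and leaving out a library gave 0 to 128 genes, the highest without TN1 tag_191 monocytes. For the difference of the tumour effects DESeq2 called 2 granule genes and 30 in all, edgeR without a filter 1 gene, and leaving out a library 0 to 1 granule genes (Padi4, without TN1 tag_191 neutrophils, adjusted p = 0.0283) and 0 to 372 genes in all. With the tag as a replicate block 23 granule genes passed between the cell types, Prtn3 not being among them (-2.94, adjusted p = 0.0849), and 0 in the difference. Deviations of libraries with the same tag correlated at -0.06 to 0.38 across genes. The tag_706 and tag_1341 neutrophils correlated best with the monocytes of their own tag (0.38 and 0.34). The tag_367 neutrophils did not (-0.06, against 0.165 with tag_706 monocytes). In TN1, with 2 libraries per cell type, the values for own and other tag differ only in sign (0.09 and -0.09). Whether a tag marks 1 animal cannot be told from these values, and the main fit leaves the tag out. The causes of these changes were not tested. With 2 TN1 libraries per cell type, only large tumour differences could be detected.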
